A study of Mus musculus with 7 samples.

Results

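Oxidative phosphorylation is carried out by 5 protein complexes of the inner mitochondrial membrane, and the genes for their subunits lie in 2 genomes. The nuclear genes were taken by symbol, as those starting with Nduf, Uqcr, Cox4 to Cox8 or Atp5, together with Sdha, Sdhb, Sdhc and Sdhd, which gave 94 of the 20643 genes measured. The genes of the mitochondrial genome, whose names start with mt-, were not found by symbol, because the symbols given for them lack that prefix or are blank. They were taken by Ensembl identifier instead, which gave 21 of the 37 annotated mitochondrial genes: 8 of 13 mRNAs, 2 of 2 rRNAs and 11 of 22 tRNAs. The remaining 16 were not analysed here. The 115 members were therefore 37 complex I subunit genes, 8 complex I assembly factors (Ndufaf), 4 genes of complex II, 8 of complex III, 17 of complex IV, 17 of complex V, 3 retrocopies of complex I genes and the 21 mitochondrial genes.

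Complexes I to IV pass electrons from NADH and succinate to oxygen, and complexes I, III and IV pump protons in doing so. Complex V, the ATP synthase, uses the proton gradient to make ATP. Most subunits are encoded in the nucleus, translated in the cytosol and imported, while a few core subunits of complexes I, III, IV and V, but none of complex II, are encoded by mitochondrial DNA, which is transcribed from both strands as long precursors that are cut at the tRNAs.

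The libraries were made from prospermatogonia, the mitotically arrested male germ cells of the fetal testis, collected at 15.5 days post coitum (the sample source field gives 15). There were 3 genotypes. H19Ter+neo fetuses (3 libraries, replicates 5, 6 and 7) were homozygous for an RNA terminator cassette and a Pgkneo selection cassette placed beside the imprinting control region of H19 and Igf2. H19Ter fetuses (2 libraries, replicates 3 and 4) were homozygous for the terminator alone, Pgkneo having been removed by a cross to Hprt-Cre mice. Wild-type (WT) fetuses gave 2 libraries, replicates 1 and 2. In all 3 genotypes the germ cells were sorted for EGFP from the TgOG2 transgene, which is driven by Pou5f1 (Oct4) regulatory sequence and came from a B6;CBA stock. The targeted lines were made in 129SI embryonic stem cells and kept on a 129S1 background, and testes of several fetuses could be pooled for a digestion. The strain make-up and the litter behind each library are not stated in the sources used here, so genotype, strain and litter cannot be told apart, and p-values measure the spread between these libraries.

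Library totals were 84104114 to 87326484 read pairs for H19Ter+neo, 51170458 and 37546716 for H19Ter, and 45103957 and 45922224 for WT. Levels are given as CPM, the read pairs of a gene per 1e6 read pairs of the library, scaled with the factors in the deposited values. The 15 germ cell markers summed to 5222 to 5480 CPM in H19Ter+neo, 4633 to 4784 CPM in H19Ter and 4728 to 4855 CPM in WT. Markers of other testicular cells were low: 9 Sertoli markers summed to 17.3 to 23.9, 23.8 to 27.6 and 20.8 to 21.1 CPM in the same order of genotypes, 10 interstitial and peritubular markers to 49.2 to 87.6, 64.1 to 129 and 54.2 to 67.7 CPM, 7 Leydig markers to 29.6 to 59.0, 32.8 to 47.2 and 32.4 to 37.4 CPM, and 7 endothelial markers to 32.3 to 35.1, 33.9 to 34.4 and 31.0 to 32.2 CPM. The 4 macrophage markers with a value, which did not include Ptprc or Csf1r, summed to 6.26 to 7.31, 7.02 to 8.04 and 4.85 to 5.78 CPM, and Alas2, the 1 of 7 erythroid markers with a value, lay at 4.34 to 5.82, 2.66 to 3.53 and 1.66 to 2.75 CPM. The germ cell, endothelial and macrophage sums and Alas2 were thus higher in H19Ter+neo than in WT without overlap, and the Sertoli, endothelial and macrophage sums were higher in H19Ter than in WT without overlap. Single germ cell markers went both ways. Of these 15 markers, 7 were called higher and 3 lower in H19Ter+neo against WT, as defined below. The shares of all genes were 27.7% and 26.7%. Pou5f1, whose regulatory sequence drives the EGFP, had 171, 185 and 148 CPM in H19Ter+neo. It had 249 and 250 CPM in H19Ter and 257 and 272 CPM in WT. The part of the markers in the results was not tested.

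The respiratory genes were well expressed in WT prospermatogonia. Divided by exonic length, the most abundant nuclear subunit mRNA was Atp5b, the catalytic beta subunit of the ATP synthase, at 223 CPM per kb. The highest of the other complexes were Cox8a of complex IV at 103, Ndufc2 of complex I at 99.8, Uqcrb of complex III at 92.4 and Sdha of complex II at 57.3 CPM per kb. The lowest in each complex were Ndufb2 at 1.48, Sdhb at 25.2, Uqcrq at 16.3, Ndufa4l2 at 0.481 and Atp5l at 4.63 CPM per kb. For Atp5l, 68.5% of its sequence windows of 50 bases were also found in transcripts of other genes, so its level is uncertain. mt-Co1, the catalytic subunit of complex IV, reached 14543 CPM per kb, and the median of the 8 mitochondrial mRNAs was 3099 CPM per kb.

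Where nuclear genes were called, they were lower in H19Ter than in WT, and both higher and lower in H19Ter+neo. The 3 genotypes were compared pairwise in 1 limma model over all 20643 genes, and a gene was called at an adjusted p below 0.05. H19Ter and H19Ter+neo were each set against the same 2 WT libraries, so the comparisons share samples.

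In H19Ter against WT, 10 of 94 nuclear members (10.6%) were lower and 0 were higher, where 11.0% of all genes were called lower and 14.1% higher, 25.1% in all. The median log2 fold change of the nuclear members was -0.23, against -0.01 over all genes. Of the 94 values, 83 were negative, where 10500 of 20643 were over all genes. Both H19Ter libraries lay below both WT libraries for 69 of the 94 members and above them for 5. Over all genes, 7234 of 20643 (35.0%) lay wholly below and 6692 (32.4%) wholly above. The share called lower was thus near that of all genes in this fit. Among the 10 were Cox6b2, Ndufc1, Atp5pb, Uqcrq, Ndufaf4, Ndufv2, Ndufs3, Ndufab1 and Atp5b. Their number depended on single libraries. It was 6, 23 and 26 without H19Ter+neo replicates 6, 5 and 7, where 22.2%, 28.4% and 27.7% of all genes were called. Those libraries enter through the shared estimate of the spread. Fewer members were called without either WT or either H19Ter library, and the share of all genes called fell as well.

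In H19Ter+neo against WT, 17 nuclear members (18.1%) rose and 21 (22.3%) fell, where 27.7% of all genes rose and 26.7% fell, 54.4% in all. The median was -0.05, against 0.01 over all genes. The 3 H19Ter+neo libraries lay above both WT libraries for 20 members and below them for 26, where 36.6% and 35.2% of all genes did. Fewer members were called without either WT library, and the share of all genes called fell as well. The split of calls moved with the H19Ter+neo libraries. It was 26 higher and 15 lower without replicate 7, where 48% of all genes were called. Without replicate 5 it was 13 higher and 29 lower, where 53.9% were.

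In H19Ter+neo against H19Ter, 28 nuclear members (29.8%) rose and 6 (6.38%) fell, where 12.5% of all genes rose and 15.2% fell, 27.7% in all. The median was 0.23, against 0.01 over all genes. Of the 94 values, 67 were positive, where 10540 of 20643 were over all genes. The libraries did not overlap for 39 of the 94 members, higher in H19Ter+neo, and for 9, lower, where the shares of all genes were 28.2% and 28.1%. With the same total for each library and no scaling factor, the split was 21 higher and 8 lower, where 28% of all genes were called. The count was 55 without H19Ter+neo replicate 7, 51 of them higher, where 23% of all genes were called. It was 32 and 27 without H19Ter+neo replicates 5 and 6, where 26.2% and 23% were. Fewer members were called without either H19Ter library, and the share of all genes called fell as well. Of the 10 members lower in H19Ter, 3 were also called lower in H19Ter+neo against WT, among them Cox6b2 and Atp5b.

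**Figure D1:**
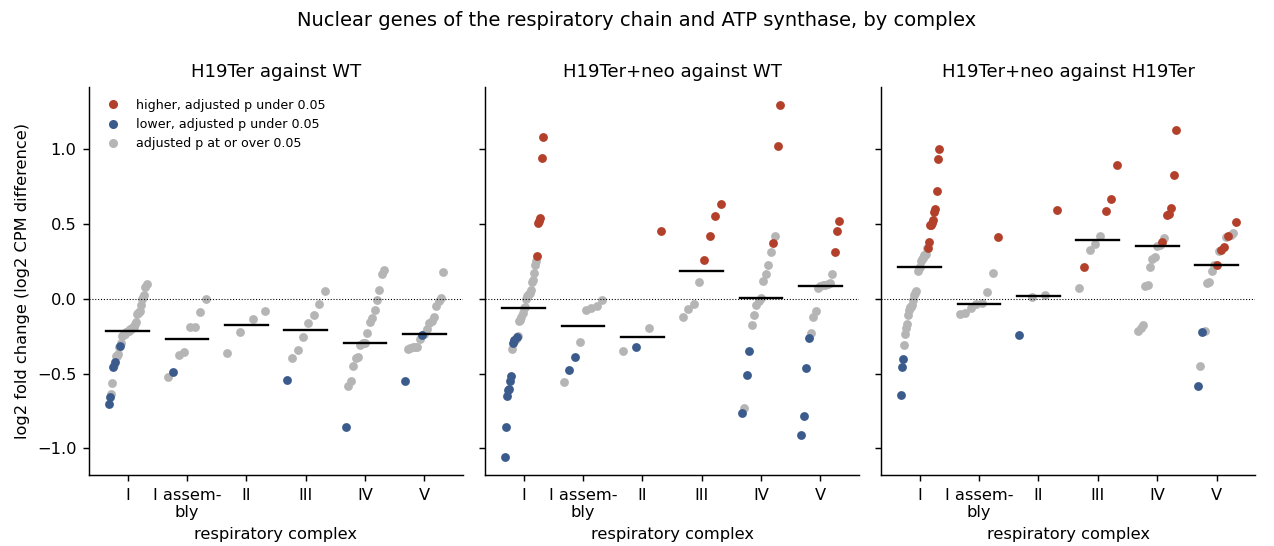
Log2 fold change of each nuclear member (points, the 3 retrocopies left out), grouped by complex, in the 3 comparisons, with a line at the median of each group, red for called higher, blue for called lower and grey for not called. In H19Ter against WT most points lie below 0, and in H19Ter+neo against H19Ter all 8 genes of complex III lie above 0.

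The 3 H19Ter+neo libraries were not alike in these genes. Replicate 5 was the highest of the 3 for 71 of the 94 nuclear members (75.5%) and replicate 7 the lowest for 87 (92.6%), where the shares over all genes were 34.5% and 34.9%. Replicate 5 was also the highest for 7 of 8 mitochondrial mRNAs and 10 of 11 mitochondrial tRNAs. Replicate 5 also had the highest marker sums of some other cell types among the 3, with a Leydig sum of 59.0 CPM, against 32.5 and 29.6 CPM in replicates 6 and 7, an interstitial and peritubular sum of 87.6 CPM, against 49.2 and 55.4 CPM, and a Sertoli sum of 23.9 CPM, against 17.3 and 18.4 CPM. Cyp17a1, a Leydig steroid enzyme, had 10.4 CPM in replicate 5, 1.40 CPM in replicate 6 and 0.649 CPM in replicate 7. Other markers did not follow this order. The macrophage sum was 6.26, 6.31 and 7.31 CPM in replicates 5, 6 and 7, and Alas2 had 4.34, 4.91 and 5.82 CPM. The endothelial sum was 34.0, 32.3 and 35.1 CPM in the same order. The part of these cells in the order of the 3 libraries was not tested. This spread within the genotype is part of the errors given for each gene.

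Genes of complex I, the NADH dehydrogenase, were called in both directions in H19Ter+neo, by up to about 1 on the log2 scale. Of its 37 genes, 5 (13.5%) fell in H19Ter against WT, where 11.0% of all genes fell. Against WT, 6 (16.2%) rose and 10 (27.0%) fell in H19Ter+neo, where 27.7% and 26.7% of all genes did. Against H19Ter, 11 (29.7%) rose and 3 (8.11%) fell, where 12.5% and 15.2% did. Ndufc2, an accessory subunit of the membrane arm (mm10 chr7:97400003-97407802), had 177, 161 and 141 CPM in H19Ter+neo, 79.2 and 79.5 CPM in H19Ter, and 73.0 and 77.5 CPM in WT. The H19Ter+neo libraries lay far above the other 4, which lay close together. The log2 fold change was 1.08 ± 0.09 (SE; adjusted p = 1.48e-05) for H19Ter+neo against WT and 1.003 ± 0.09 (adjusted p = 7.8e-05) against H19Ter. For H19Ter against WT it was 0.08 ± 0.10 (adjusted p = 0.583). Ndufb11, an X-linked accessory subunit of the membrane arm, had 61.2, 49.9 and 43.5 CPM in H19Ter+neo, 27.0 and 26.4 CPM in H19Ter, and 25.1 and 27.9 CPM in WT. Again the H19Ter+neo libraries stood above all others, with a log2 fold change of 0.94 ± 0.12 against WT (adjusted p = 0.000166) and 0.93 ± 0.12 against H19Ter (adjusted p = 0.000652), and H19Ter and WT overlapped. A share of 12.9% of the exonic bases of Ndufb11 lies under exons of its neighbour Rbm10.

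Other subunits of the complex went the other way. Ndufb3, an accessory subunit, had 8.65, 8.47 and 6.59 CPM in H19Ter+neo, 11.8 and 12.8 CPM in H19Ter, and 12.2 and 16.6 CPM in WT. The H19Ter+neo libraries lay below the other 4, and the fall was -0.86 ± 0.16 on the log2 scale against WT (adjusted p = 0.00126) and -0.64 ± 0.16 against H19Ter (adjusted p = 0.0142), the call against H19Ter being lost without H19Ter replicate 3 or 4. Ndufb10, another accessory subunit, had 13.7, 17.0 and 13.7 CPM in H19Ter+neo, 20.4 and 20.04 CPM in H19Ter, and 23.6 and 22.6 CPM in WT, again with no overlap between genotypes, and fell by 0.65 ± 0.11 on the log2 scale against WT (adjusted p = 0.000661). Its call against H19Ter (-0.46 ± 0.11, adjusted p = 0.0115) was lost without H19Ter replicate 3 or 4.

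Ndufc1, whose product sits beside that of Ndufc2 in the complex, did not share its pattern. It had 30.0, 22.5 and 16.3 CPM in H19Ter+neo, 14.3 and 12.7 CPM in H19Ter, and 20.3 and 23.7 CPM in WT. H19Ter was the lowest genotype and H19Ter+neo overlapped WT. The log2 fold change was -0.70 ± 0.22 for H19Ter against WT (adjusted p = 0.0411), 0.02 for H19Ter+neo against WT (adjusted p = 0.939) and 0.72 ± 0.20 for H19Ter+neo against H19Ter (adjusted p = 0.0235). The call in H19Ter against WT was lost with voom, with the same total per library, and without either WT library, either H19Ter library or H19Ter+neo replicate 6. The call against H19Ter was lost with voom and without either H19Ter library or H19Ter+neo replicate 6.

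Of the 8 complex I assembly factors, 2 fell in H19Ter+neo against WT (Ndufaf6 and Ndufaf7) and none rose, where 26.7% and 27.7% of all genes did. All 8 values were negative, with a median of -0.18, where 10111 of 20643 were negative over all genes. Ndufaf4 was the 1 called lower in H19Ter against WT, with 22.9, 17.9 and 16.6 CPM in H19Ter+neo, 14.6 and 13.8 CPM in H19Ter, and 18.3 and 21.9 CPM in WT. H19Ter was below every other library, at a log2 fold change of -0.49 ± 0.15 against WT (adjusted p = 0.0389). Among the retrocopies, Ndufb4c had 7, 13 and 16 read pairs in H19Ter+neo, 24 and 4 in H19Ter, and 26 and 41 in WT. It fell in H19Ter+neo against WT (log2 fold change -2.19, adjusted p = 0.00706), but all of its sequence windows of 50 bases were also found in transcripts of other genes, so the origin of its reads is uncertain.

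The 4 genes of complex II, the succinate dehydrogenase, did not move as a unit. Sdha, the flavoprotein that oxidizes succinate, had 190, 203 and 176 CPM in H19Ter+neo, 221 and 226 CPM in H19Ter, and 232 and 241 CPM in WT. The 3 genotypes did not overlap, H19Ter+neo being the lowest, and the log2 fold change was -0.32 ± 0.07 for H19Ter+neo against WT (adjusted p = 0.00247) and -0.24 ± 0.07 against H19Ter (adjusted p = 0.0237, lost without H19Ter replicate 3 or 4). Sdhb, the iron-sulfur subunit that binds Sdha, had 83.9, 77.2 and 70.9 CPM in H19Ter+neo, 51.6 and 50.8 CPM in H19Ter, and 52.8 and 60.1 CPM in WT. Here H19Ter+neo was the highest, by 0.45 ± 0.09 on the log2 scale against WT (adjusted p = 0.00142) and 0.59 ± 0.09 against H19Ter (adjusted p = 0.00107). The membrane anchors Sdhc (log2 fold change -0.19, adjusted p = 0.143) and Sdhd (-0.35, adjusted p = 0.0748) were not called in H19Ter+neo against WT. No gene of complex II was called in H19Ter against WT, where all 4 values were negative, as were 10500 of 20643 over all genes.

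**Figure D2:**
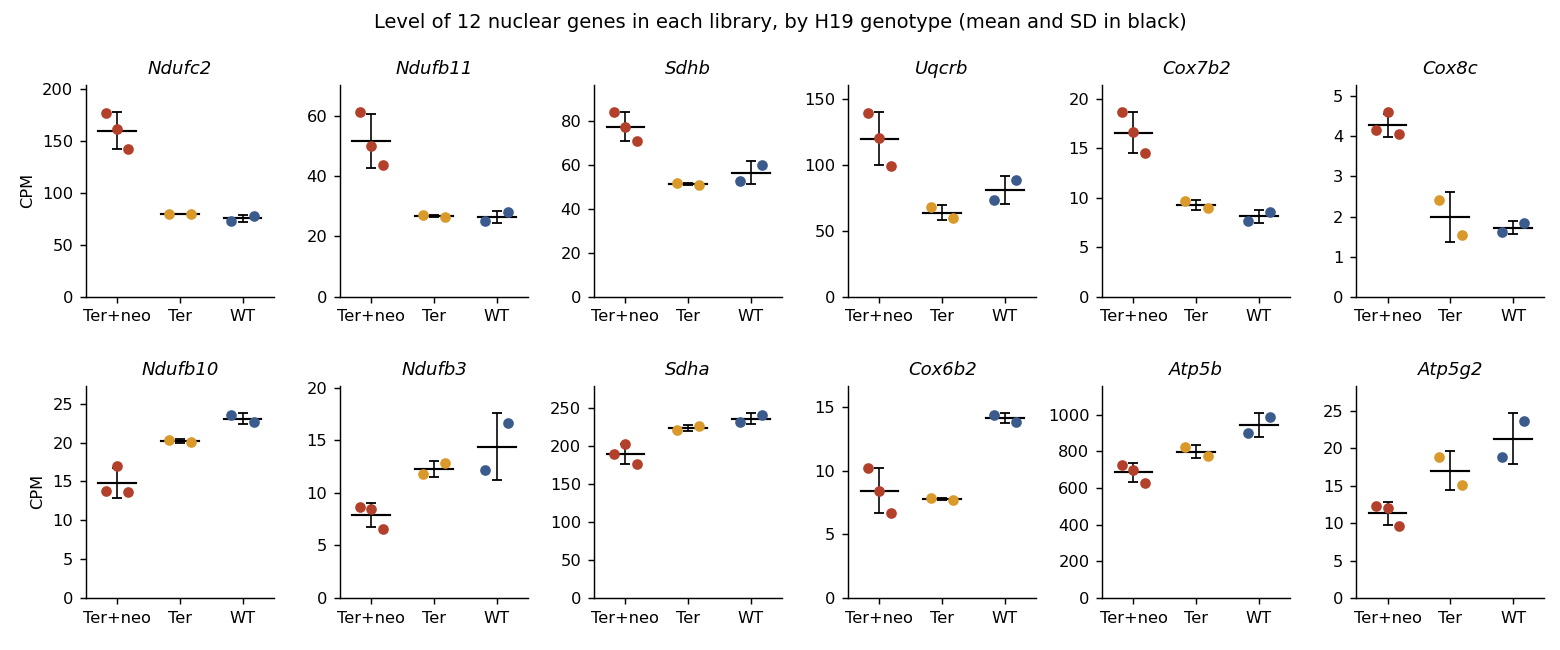
CPM in each library (points) for 12 nuclear genes, with H19Ter+neo, H19Ter and WT from left to right and the mean and SD of each genotype in black. Ndufc2, Ndufb11, Sdhb, Uqcrb, Cox7b2 and Cox8c are highest in H19Ter+neo, while Ndufb10, Ndufb3, Sdha, Cox6b2, Atp5b and Atp5g2 have their highest mean in WT.

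In complex III, the cytochrome bc1 complex, 4 of 8 nuclear genes rose and 0 fell in H19Ter+neo against WT, where 27.7% and 26.7% of all genes did, and 4 rose and 0 fell against H19Ter, where 12.5% and 15.2% did. Uqcrfs1, the Rieske iron-sulfur protein, had 86.8, 76.5 and 74.3 CPM in H19Ter+neo, 51.3 and 48.1 CPM in H19Ter, and 50.5 and 51.3 CPM in WT. These libraries of H19Ter+neo stood apart, and the other 4 lay within a narrow range. The log2 fold change was 0.63 ± 0.08 against WT (adjusted p = 0.00013) and 0.67 ± 0.08 against H19Ter (adjusted p = 0.000377). Uqcrb, a small subunit near the ubiquinone site, had 139, 120 and 99.04 CPM in H19Ter+neo, 67.7 and 59.8 CPM in H19Ter, and 73.3 and 88.5 CPM in WT. It rose by 0.90 ± 0.13 on the log2 scale against H19Ter (adjusted p = 0.00111) and by 0.56 ± 0.13 against WT (adjusted p = 0.00501), the call against WT being lost without WT replicate 1 (adjusted p = 0.0655). A share of 43.2% of its windows was also found in other transcripts. Uqcrc1, a core protein, varied little between libraries, with 172, 171 and 171 CPM in H19Ter+neo, 149 and 147 CPM in H19Ter, and 142 and 144 CPM in WT. Its rise was small, at 0.26 ± 0.05 on the log2 scale against WT (adjusted p = 0.00215). Uqcrq, a small accessory subunit, was the gene of this complex called lower in H19Ter, with 33.4, 27.6 and 22.1 CPM in H19Ter+neo, 20.8 and 20.1 CPM in H19Ter, and 28.9 and 30.7 CPM in WT. H19Ter lay below both WT libraries, at -0.54 ± 0.16 on the log2 scale (adjusted p = 0.0298), a call lost with voom and without either WT or either H19Ter library.

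Complex IV, the cytochrome c oxidase, has subunits with paired isoforms, and several of the second isoforms are known from the testis. Of its 17 genes, 1 (5.88%) fell in H19Ter against WT, where 11.0% of all genes fell. In H19Ter+neo, 3 rose and 3 fell against WT (17.6% each), where 27.7% and 26.7% of all genes did, and 6 (35.3%) rose and 0 fell against H19Ter, where 12.5% and 15.2% did. Cox7b2, the testis form of Cox7b, had 18.6, 16.6 and 14.5 CPM in H19Ter+neo, 9.67 and 8.93 CPM in H19Ter, and 7.68 and 8.58 CPM in WT. H19Ter+neo was above all other libraries, with a log2 fold change of 1.02 ± 0.12 against WT (adjusted p = 0.000106) and 0.83 ± 0.12 against H19Ter (adjusted p = 0.00122). Its partner isoform Cox7b had 115, 99.04 and 74.9 CPM in H19Ter+neo, 67.0 and 57.5 CPM in H19Ter, and 73.0 and 79.6 CPM in WT. The H19Ter+neo and WT libraries of Cox7b overlapped, and the log2 fold change was 0.31 against WT (adjusted p = 0.094) and 0.61 ± 0.15 against H19Ter (adjusted p = 0.0127, lost without H19Ter replicate 4).

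Cox8c, the testis form of Cox8, had few reads, with 339, 401 and 351 read pairs in H19Ter+neo, 129 and 60 in H19Ter, and 72 and 82 in WT. As CPM these were 4.16, 4.60 and 4.07 in H19Ter+neo, 2.42 and 1.55 in H19Ter, and 1.61 and 1.84 in WT. H19Ter+neo lay above all other libraries while H19Ter spanned the WT values, and the log2 fold change was 1.29 ± 0.21 against WT (adjusted p = 0.000528) and 1.13 ± 0.21 against H19Ter (adjusted p = 0.00352). Its abundant counterpart Cox8a had 77.9, 84.4 and 61.7 CPM in H19Ter+neo, 63.7 and 52.9 CPM in H19Ter, and 59.98 and 66.9 CPM in WT, and was not called.

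Cox6b2, the testis form of Cox6b, was lower in both mutants. It had 10.2, 8.40 and 6.65 CPM in H19Ter+neo, 7.85 and 7.71 CPM in H19Ter, and 14.4 and 13.9 CPM in WT. The mutant libraries overlapped each other and all lay below WT, at -0.76 ± 0.16 on the log2 scale for H19Ter+neo (adjusted p = 0.00241) and -0.86 ± 0.17 for H19Ter (adjusted p = 0.00755), the H19Ter call being lost without WT replicate 2 or H19Ter replicate 4. Cox6b1, the widely expressed form, had 70.1, 71.7 and 50.6 CPM in H19Ter+neo, 55.4 and 50.3 CPM in H19Ter, and 62.1 and 68.6 CPM in WT, with no call. The 3 testis isoforms therefore did not share a direction.

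Of the other isoform sets, Cox7a2l, which joins complexes III and IV into a supercomplex, had 63.1, 67.5 and 58.4 CPM in H19Ter+neo, 50.9 and 45.9 CPM in H19Ter, and 47.7 and 49.7 CPM in WT. It was higher in H19Ter+neo by 0.37 ± 0.08 on the log2 scale against WT (adjusted p = 0.00339) and 0.38 ± 0.08 against H19Ter (adjusted p = 0.00739), the call against H19Ter being lost without H19Ter replicate 4. Cox7a1, Cox7a2, Cox4i1, Cox6a1, Ndufa4 and Ndufa4l2 were not called in any comparison. Cox4i2, Cox6a2 and Cox8b were not analysed here. Cox5a and Cox5b, nuclear subunits of the same complex, fell in H19Ter+neo against WT by 0.51 (adjusted p = 0.00659) and 0.35 (adjusted p = 0.0317) on the log2 scale. Shares of 2.85% and 25.9% of their windows were also found in other transcripts.

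In complex V, the ATP synthase, 2 of 17 genes (11.8%) fell in H19Ter against WT, where 11.0% of all genes fell. In H19Ter+neo, 3 (17.6%) rose and 4 (23.5%) fell against WT, where 27.7% and 26.7% of all genes did, and 5 (29.4%) rose and 2 (11.8%) fell against H19Ter, where 12.5% and 15.2% did. Atp5b had 725, 700 and 629 CPM in H19Ter+neo, 822 and 772 CPM in H19Ter, and 898 and 988 CPM in WT. The 3 genotypes did not overlap and WT was the highest. The log2 fold change was -0.46 ± 0.07 for H19Ter+neo against WT (adjusted p = 0.000424) and -0.24 ± 0.08 for H19Ter against WT (adjusted p = 0.0461), the second being called in 7 of 15 alternative settings and lost without either WT library, either H19Ter library or H19Ter+neo replicate 6. Its partner in the catalytic head, Atp5a1, had 365, 319 and 321 CPM in H19Ter+neo, 295 and 276 CPM in H19Ter, and 299 and 323 CPM in WT. H19Ter+neo overlapped WT and was not called against it (log2 fold change 0.10, adjusted p = 0.241). Atp5d, the delta subunit of the central stalk, had 124, 148 and 132 CPM in H19Ter+neo, 110 and 102 CPM in H19Ter, and 96.9 and 90.5 CPM in WT, and rose by 0.52 on the log2 scale in H19Ter+neo against WT (adjusted p = 0.000427).

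The membrane ring of c subunits is encoded by Atp5g1, Atp5g2 and Atp5g3, whose mature proteins are the same. Atp5g2 had 12.3, 12.02 and 9.57 CPM in H19Ter+neo, 18.8 and 15.1 CPM in H19Ter, and 18.8 and 23.6 CPM in WT. All 3 H19Ter+neo libraries lay below the rest, at -0.91 ± 0.15 on the log2 scale against WT (adjusted p = 0.000588) and -0.59 ± 0.15 against H19Ter (adjusted p = 0.0156), the call against H19Ter being lost without H19Ter replicate 3. Atp5g1 had 72.1, 77.4 and 61.2 CPM in H19Ter+neo, 86.1 and 76.3 CPM in H19Ter, and 81.8 and 85.6 CPM in WT, a log2 fold change of -0.26 ± 0.10 in H19Ter+neo against WT (adjusted p = 0.0445) that was called in 6 of 15 alternative settings and lost without either WT library, either H19Ter library or H19Ter+neo replicate 7. Atp5g3 had 164, 162 and 134 CPM in H19Ter+neo, 128 and 116 CPM in H19Ter, and 133 and 139 CPM in WT, and it was called against H19Ter (0.32 ± 0.09, adjusted p = 0.025, lost without H19Ter replicate 3 or 4 or H19Ter+neo replicate 6). Atp5h, a stalk subunit, had 10.4, 9.83 and 7.18 CPM in H19Ter+neo, 13.04 and 11.7 CPM in H19Ter, and 14.6 and 16.5 CPM in WT. It fell by 0.78 ± 0.15 on the log2 scale in H19Ter+neo against WT (adjusted p = 0.00184), with 47.9% of its windows found in other transcripts.

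Many respiratory genes have processed copies elsewhere in the genome. Of the 94 nuclear members, 39 had at least 1 window of 50 bases that was also found in a transcript of another gene, and 12 had at least 20% of their windows. In the 55 members with none, 0 rose and 5 (9.09%) fell in H19Ter against WT, where 14.1% and 11.0% of all genes did. In H19Ter+neo against WT, 13 (23.6%) rose and 10 (18.2%) fell, where 27.7% and 26.7% of all genes did. In H19Ter+neo against H19Ter, 20 (36.4%) rose and 3 (5.45%) fell, where 12.5% and 15.2% did. Exons of another gene overlapped 5 members on the same strand and 30 on the opposite strand, 4 of them (Atp5o, Ndufa13, Ndufaf2 and Ndufb6) over at least 20% of their exonic bases. The strand setting used for counting is not stated in the sources used here.

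Promoters of respiratory genes often hold sites for NRF1 and for ETS factors such as GABP. RefSeq start sites (GRCm38.p6) were found for 77 of the 94 nuclear members, and the 250 bases before each were searched on both strands for GCGCA, any base and then GCGC (NRF1), for CCGGAAG (ETS) and for AAGAT followed directly by GGCGG (YY1). The NRF1 letters were in 14 of 77 (18.2%), the ETS letters in 14 (18.2%) and the YY1 letters in 1 (1.3%), against 8.24%, 13.8% and 0.702% of 12687 measured genes and 4.23%, 7.83% and 0.359% of 27025 genes in all. Of the 14 genes that rose in H19Ter+neo against WT and had a window, 2 held the NRF1 letters and 1 the ETS letters. Of the 17 that fell, 4 held the NRF1 letters and 2 the ETS letters. Of the 46 not called, 8 held the NRF1 letters and 11 the ETS letters. An example of each of the NRF1 and ETS motifs is shown, from Ndufb6 and Ndufaf4, with the motif in capitals. Both genes were called higher in H19Ter+neo against H19Ter. Ndufb6, an accessory subunit of complex I, had 32.5, 31.1 and 25.4 CPM in H19Ter+neo, 21.3 and 19.8 CPM in H19Ter, and 23.6 and 24.8 CPM in WT, and was called higher in H19Ter+neo against WT (log2 fold change 0.29, adjusted p = 0.0448). Its window (chr4:40279422-40279671, minus strand) holds the ETS letters on the opposite strand, 232 to 226 bases before the start:
Ndufb6: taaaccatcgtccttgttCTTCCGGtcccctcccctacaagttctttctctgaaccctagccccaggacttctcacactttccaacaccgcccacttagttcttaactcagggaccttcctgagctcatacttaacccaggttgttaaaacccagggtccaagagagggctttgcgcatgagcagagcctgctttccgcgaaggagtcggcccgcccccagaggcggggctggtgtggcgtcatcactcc
The window of Ndufaf4 (chr4:24897833-24898082, plus strand), which was called lower in H19Ter, holds the NRF1 letters 113 to 104 bases before the start, where they match on both strands:
Ndufaf4: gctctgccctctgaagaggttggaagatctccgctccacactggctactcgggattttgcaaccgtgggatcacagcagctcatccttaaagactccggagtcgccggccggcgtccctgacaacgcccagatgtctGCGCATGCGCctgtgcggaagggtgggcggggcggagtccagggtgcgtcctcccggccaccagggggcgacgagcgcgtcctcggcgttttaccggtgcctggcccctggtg
These matches are descriptions of the letters and were not tested as binding sites.

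The mitochondrial genes, in contrast, were called in 1 direction with 1 exception. In H19Ter against WT, 0 of 21 were called by limma, where 25.1% of all genes were. With H19Ter and WT fitted alone, 3 were called, where 30.8% of all genes were. Without H19Ter+neo replicates 5 and 7, 3 and 1 were called, where 28.4% and 27.7% of all genes were. Against WT, 10 (47.6%) rose in H19Ter+neo and 1 (4.76%) fell, where 27.7% and 26.7% of all genes did, and the median log2 fold change was 0.47. Against H19Ter, 10 rose and 0 fell in H19Ter+neo, where 12.5% and 15.2% of all genes did, and the median was 0.46. Fewer of the 21 were called against WT without either WT library, and fewer against H19Ter without either H19Ter library. The shares of all genes called fell in these fits as well.

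Among the mRNAs, mt-Nd1, a membrane subunit of complex I, had 7842, 7141 and 6325 CPM in H19Ter+neo, 4551 and 4999 CPM in H19Ter, and 4924 and 5284 CPM in WT. All 3 H19Ter+neo libraries lay above the rest, by 0.47 ± 0.09 on the log2 scale against WT (adjusted p = 0.00106) and 0.57 ± 0.09 against H19Ter (adjusted p = 0.00122), and both calls held in all 15 alternative settings. mt-Nd2, another membrane subunit of complex I, had 3630, 3387 and 3028 CPM in H19Ter+neo, 2458 and 2852 CPM in H19Ter, and 2819 and 2863 CPM in WT. It rose by less, 0.23 ± 0.08 against WT (adjusted p = 0.0346) and 0.33 ± 0.08 against H19Ter (adjusted p = 0.0141), and the call against WT was lost without either WT library or H19Ter+neo replicate 5 or 6, that against H19Ter without H19Ter replicate 3. mt-Co1 had 30957, 26459 and 24841 CPM in H19Ter+neo, 18846 and 20925 CPM in H19Ter, and 21843 and 23094 CPM in WT, without overlap. Its log2 fold change was 0.28 ± 0.09 against WT (adjusted p = 0.0217, lost without either WT library) and 0.46 ± 0.09 against H19Ter (adjusted p = 0.00462, lost without H19Ter replicate 3).

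The mRNAs further along the genome were not called higher against WT. mt-Nd4, a proton-pumping subunit of complex I, had 3470, 3381 and 2943 CPM in H19Ter+neo, 2931 and 3319 CPM in H19Ter, and 3212 and 3446 CPM in WT, with overlap in both comparisons (-0.03 against WT, adjusted p = 0.764; 0.06 against H19Ter, adjusted p = 0.599). mt-Nd5, a like subunit, had 6998, 6206 and 6616 CPM in H19Ter+neo, 5310 and 5861 CPM in H19Ter, and 5991 and 6637 CPM in WT, and was called against H19Ter (0.24 ± 0.07, adjusted p = 0.0303, lost without H19Ter replicate 3 or H19Ter+neo replicate 5 or 7) but not against WT (0.07, adjusted p = 0.458). mt-Cytb, the core of complex III, had 6298, 5479 and 4764 CPM in H19Ter+neo, 4397 and 4876 CPM in H19Ter, and 4746 and 5226 CPM in WT, and was not called (0.14 against WT, adjusted p = 0.273). mt-Cytb therefore did not repeat the calls of the 4 nuclear genes of complex III.

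mt-Nd6 is the one mRNA made from the other strand, and it was the exception in direction. It had 214, 161 and 172 CPM in H19Ter+neo, 199 and 230 CPM in H19Ter, and 236 and 285 CPM in WT. H19Ter+neo lay below WT, at -0.52 ± 0.12 on the log2 scale (adjusted p = 0.00485), and overlapped H19Ter (-0.24, adjusted p = 0.171). The call against WT was lost without WT replicate 2 (adjusted p = 0.0752).

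**Figure D3:**
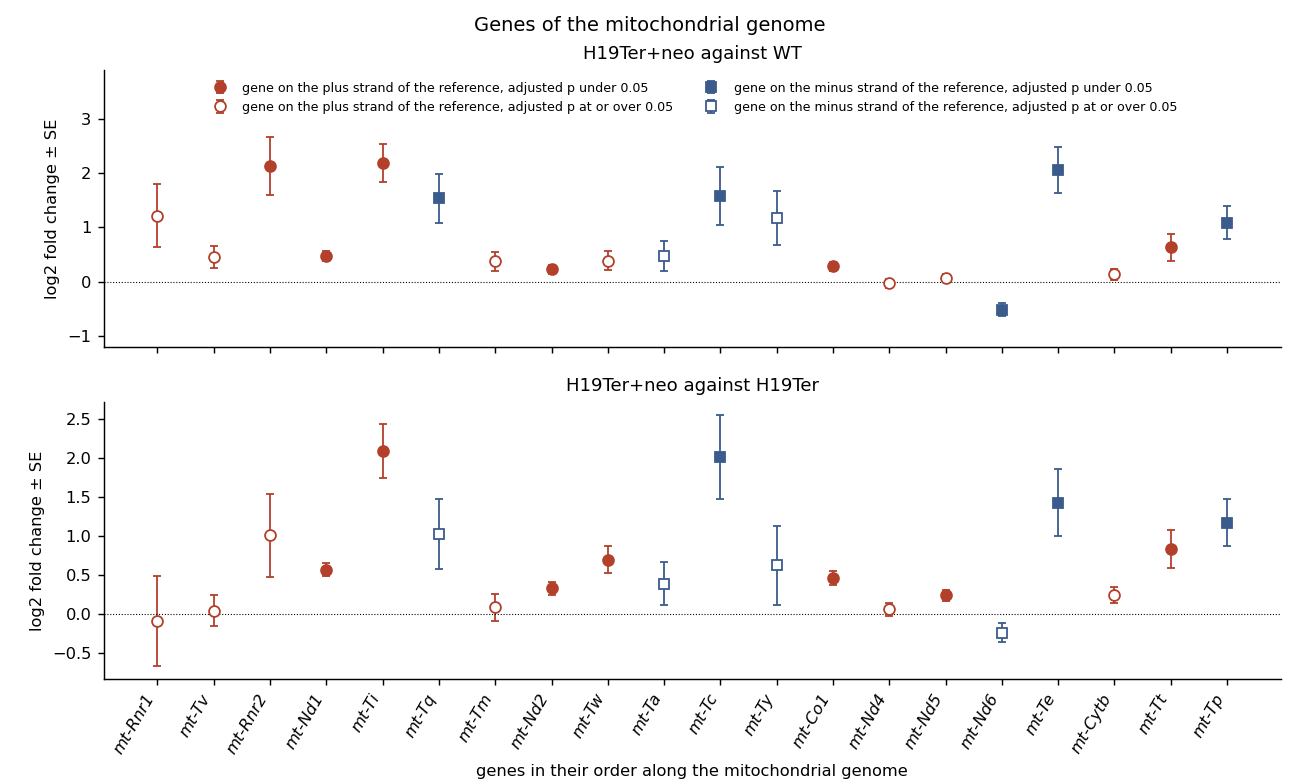
Log2 fold change of the mitochondrial genes in their order along the genome (points with SE, mt-Co3 left out) in H19Ter+neo against WT and against H19Ter, with circles for the plus and squares for the minus strand and filled symbols for genes called. The tRNAs and mt-Rnr2 reach the highest values in H19Ter+neo, mt-Nd1 lies above mt-Nd4 and mt-Nd5, and mt-Nd6 lies below 0.

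Apart from mt-Co3, whose reads are described with the chromosome 1 copy, the largest log2 fold changes of mitochondrial genes in H19Ter+neo against WT were those of tRNAs and mt-Rnr2. Several of these tRNAs had few reads. All 11 tRNA genes had a positive log2 fold change in H19Ter+neo against WT (median 1.09) and against H19Ter (median 0.84), where 10532 and 10540 of 20643 genes did. Of the 11, 6 (54.5%) rose in each comparison, where 27.7% and 12.5% of all genes rose. Mature tRNAs are short, so read pairs over these genes can come from precursors as well, and which molecules they came from was not tested. The sequences of the 2 tRNA genes with the largest log2 fold changes against WT among the tRNAs are shown from GRCm38, mt-Ti for isoleucine (chrM:3706-3774, plus strand) and mt-Te for glutamate (chrM:14071-14139, minus strand), which lie on opposite strands:
mt-Ti: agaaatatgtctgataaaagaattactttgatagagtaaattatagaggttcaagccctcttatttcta
mt-Te: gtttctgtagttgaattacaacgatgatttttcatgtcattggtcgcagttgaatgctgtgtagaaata
mt-Ti had 90, 99 and 110 read pairs in H19Ter+neo, 13 and 10 in H19Ter, and 7 and 15 in WT, or 1.10, 1.14 and 1.27 CPM in H19Ter+neo, 0.244 and 0.258 CPM in H19Ter, and 0.156 and 0.337 CPM in WT. The H19Ter+neo libraries were close to each other and above all others, and the log2 fold change was 2.19 ± 0.35 against WT (adjusted p = 0.000494) and 2.09 ± 0.35 against H19Ter (adjusted p = 0.00207). Its last 3 bases, 3772 to 3774, are shared with mt-Tq on the other strand. mt-Te had 5.40, 3.21 and 1.61 CPM in H19Ter+neo, 1.22 and 1.01 CPM in H19Ter, and 0.536 and 0.921 CPM in WT, with replicate 5 well above replicate 7, and a log2 fold change of 2.06 ± 0.43 against WT (adjusted p = 0.00232) and 1.43 ± 0.43 against H19Ter (adjusted p = 0.0311).

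mt-Tp, the proline tRNA, had 10.05, 8.16 and 4.53 CPM in H19Ter+neo, 3.14 and 3.20 CPM in H19Ter, and 2.61 and 4.31 CPM in WT. H19Ter+neo replicate 7 was only just above WT replicate 2, and the log2 fold change was 1.09 ± 0.31 against WT (adjusted p = 0.0118), lost without WT replicate 1. Against H19Ter it was 1.17 ± 0.31 (adjusted p = 0.0175), lost with voom and without either H19Ter library or H19Ter+neo replicate 6. mt-Tq, the glutamine tRNA, had 20.9, 12.7 and 5.76 CPM in H19Ter+neo, 6.16 and 5.16 CPM in H19Ter, and 2.72 and 5.73 CPM in WT, a log2 fold change of 1.54 ± 0.45 against WT (adjusted p = 0.0144), lost with voom and without WT replicate 1. mt-Tm, the methionine tRNA, was the tRNA with the most reads, at 75.1, 47.4 and 52.6 CPM in H19Ter+neo, 61.2 and 47.4 CPM in H19Ter, and 40.8 and 47.8 CPM in WT, and was not called (0.37, adjusted p = 0.0948). The 2 rRNAs were measured after rRNA depletion and varied widely. mt-Rnr2, the large rRNA, had 211, 68.1 and 40.0 CPM in H19Ter+neo, 55.6 and 30.6 CPM in H19Ter, and 15.9 and 22.4 CPM in WT, with WT the lowest and replicate 5 far above the rest. It rose by 2.14 ± 0.53 on the log2 scale in H19Ter+neo against WT (adjusted p = 0.00665), a call lost without WT replicate 1. mt-Rnr1, the small rRNA, had 61.2, 32.3 and 9.61 CPM in H19Ter+neo, 35.5 and 22.8 CPM in H19Ter, and 9.42 and 13.9 CPM in WT, and was not called. The part of the depletion step in these values was not tested.

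Part of the mitochondrial genome has a near-identical copy on chromosome 1, and reads that fit both places may not be assigned to either. Of the windows of mt-Co3, 99.9% were also found in another transcript, against 62.2% for mt-Nd4, 51.1% for mt-Co1, 8.19% for mt-Nd2, 7.61% for mt-Nd5 and 0% for mt-Nd1, mt-Cytb, mt-Nd6, the rRNAs and the tRNAs. mt-Co3, a core subunit of complex IV, had 12, 61 and 32 read pairs in H19Ter+neo and 1 and 7 in WT. In H19Ter it had 2856 read pairs in replicate 3 and 0 in replicate 4, so replicate 3 stood apart, and the gene was not called. Without H19Ter replicate 3 its log2 fold change in H19Ter+neo against H19Ter was 3.55 (adjusted p = 0.0393), against -1.81 with all libraries, and it was called at -7.16 without H19Ter replicate 4.

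The annotated genes of that chromosome 1 copy are not members and were chosen after their values were seen. The 7 genes (Gm29216, Gm28661, Gm10925, Gm28437, Gm28438, Gm10222 and Gm28439) are all on the minus strand and match mt-Co1, mt-Co2, mt-Atp6, mt-Co3, mt-Nd3, mt-Nd4l and mt-Nd4. Together they had 39.1, 32.3 and 24.2 CPM in H19Ter+neo, 119 and 111 CPM in H19Ter, and 126 and 118 CPM in WT. The H19Ter+neo libraries lay at 31.9 ± 7.50 CPM (SD, n = 3), far below H19Ter at 115 ± 5.88 CPM and WT at 122 ± 5.55 CPM (SD, n = 2 each). The largest fall was that of Gm29216, which aligned to mt-Co1 over 483 bases with 1 mismatch. It had 6.59, 6.90 and 5.12 CPM in H19Ter+neo, 35.1 and 30.9 CPM in H19Ter, and 38.0 and 33.4 CPM in WT, a log2 fold change of -2.53 ± 0.13 against WT (adjusted p = 2.01e-06). Gm28661, Gm10925 and Gm28437 fell by 2.40, 2.17 and 2.01 on the log2 scale in H19Ter+neo against WT (adjusted p = 1.72e-05, 2.07e-05 and 4.38e-05). Gm28438 and Gm28439 were not called. Gm10222 went the other way, at 2.05 in H19Ter+neo against WT (adjusted p = 0.000697) and 1.58 in H19Ter against WT (adjusted p = 0.0146), and it was the one gene of the 7 called in H19Ter against WT.

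The closeness of the 2 copies is shown from GRCm38 with 2 pairs. The first 48 bases of mt-Nd3 (chrM:9459-9506, plus strand) and of Gm28438 (chr1:24613072-24613119, minus strand) differ by T3C, counted from 1 at the 5′ end of the gene with the mt-Nd3 base first, which is in capitals and is the only mismatch in 345 aligned bases:
mt-Nd3: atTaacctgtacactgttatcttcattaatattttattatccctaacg
Gm28438: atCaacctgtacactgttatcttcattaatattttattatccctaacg
A stretch of 91 bases of mt-Co3 (chrM:8622-8712, plus strand) and of Gm28437 (chr1:24613866-24613956, minus strand) is the same base for base, as are all 783 aligned bases:
mt-Co3: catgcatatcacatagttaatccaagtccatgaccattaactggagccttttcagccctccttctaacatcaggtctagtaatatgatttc
Gm28437: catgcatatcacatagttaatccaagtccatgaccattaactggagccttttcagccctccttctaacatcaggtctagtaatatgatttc
Where their bases are the same, a read of 50 bases fits both loci. The values of these genes and of mt-Co3, and in part those of mt-Nd4 and mt-Co1, carry that limit. How often the other read of a pair told the loci apart was not tested. The number of copies of this stretch in each strain background was not tested.

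**Figure D4:**
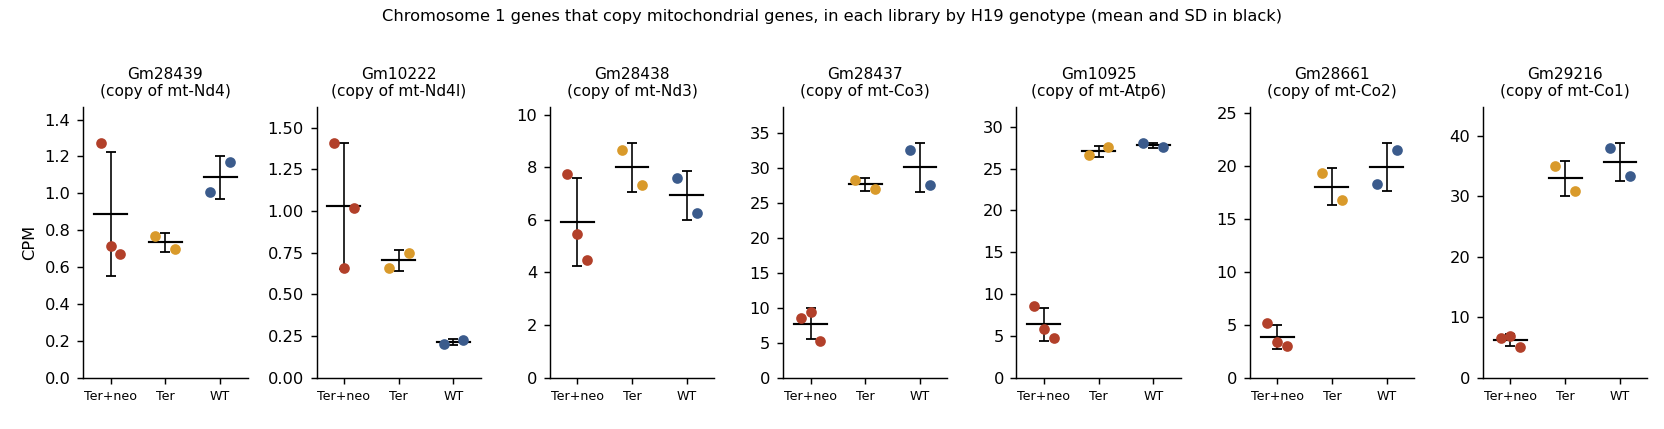
CPM of the 7 chromosome 1 genes that copy mitochondrial genes, per library (points), with H19Ter+neo, H19Ter and WT from left to right and the mean and SD in black. Gm29216, Gm28661, Gm10925 and Gm28437 are lowest in all 3 H19Ter+neo libraries, while Gm10222 is not.

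Set side by side, the summed mitochondrial mRNAs and the summed nuclear genes did not move together in H19Ter+neo against WT. Against H19Ter the means of both sums were higher. The 8 mitochondrial mRNAs summed to 59410, 52216 and 48690 CPM in H19Ter+neo, 38746 and 43062 CPM in H19Ter, and 43771 and 46835 CPM in WT. The 3 genotypes did not overlap, and the mean was 18.0% higher in H19Ter+neo than in WT, 30.6% higher in H19Ter+neo than in H19Ter, and 9.71% lower in H19Ter than in WT. mt-Co1 had the largest part of this sum, and 51.1% of its windows were also found in another transcript. Against WT, mt-Co1, mt-Nd1 and mt-Nd2 were called higher and mt-Nd6 lower in H19Ter+neo. mt-Nd4, mt-Nd5, mt-Cytb and mt-Co3 were not called, so the sum need not stand for each mRNA. The 94 nuclear members summed to 5719, 5361 and 4633 CPM in H19Ter+neo, 4783 and 4492 CPM in H19Ter, and 5092 and 5502 CPM in WT. H19Ter+neo spanned WT, with a mean 1.12% lower, and overlapped H19Ter, with a mean 12.9% higher than in H19Ter. Both H19Ter libraries lay below WT, with a mean 12.5% lower. The ratio of the 2 sums, which does not depend on how a library is scaled, was 10.4, 9.74 and 10.5 in H19Ter+neo, 8.10 and 9.59 in H19Ter, and 8.60 and 8.51 in WT. All 3 H19Ter+neo libraries had the highest ratios, 0.25 higher on the log2 scale than in WT and 0.21 higher than in H19Ter, and H19Ter spanned WT (0.04). The difference from H19Ter lay between 0.09 and 0.33 with single libraries left out, the lower value being without H19Ter replicate 3 and the higher without H19Ter replicate 4. Over all genes, log2 fold changes in H19Ter+neo fell with the share of G and C bases (GC). Spearman correlations were -0.14 against WT and -0.28 against H19Ter, and 0.006 and -0.10 over the nuclear members. Median GC was 37.4% in the mitochondrial mRNAs and 50.4% in the nuclear members. The part of GC in the ratio was not tested.

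**Figure D5:**
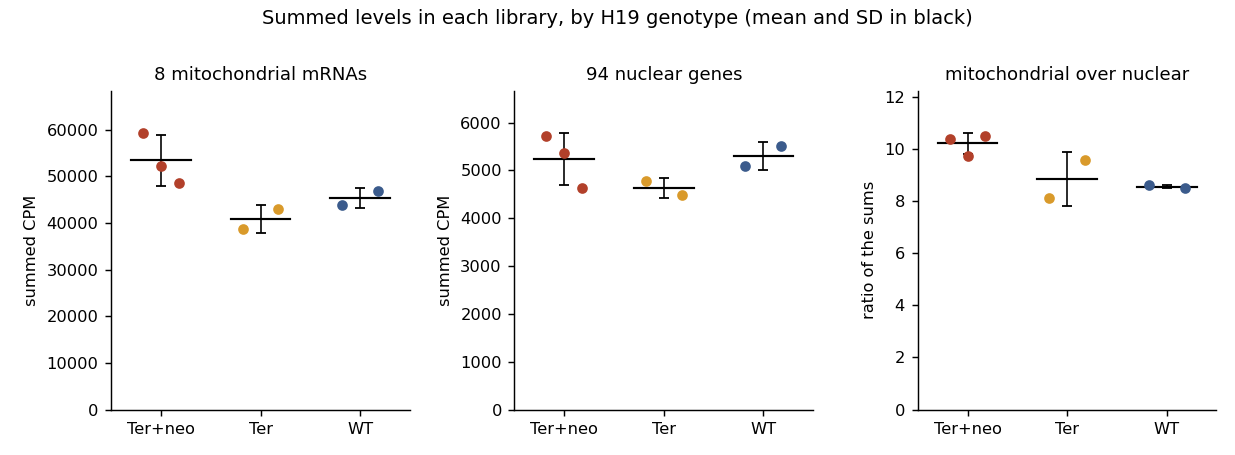
Summed CPM of the mitochondrial mRNAs and of the nuclear members, and their ratio, in each library (points), with H19Ter+neo, H19Ter and WT from left to right and the mean and SD in black. The ratio is 9.74 to 10.5 in H19Ter+neo and at most 9.59 in the other libraries.

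The sums by complex weight each gene by its level and need not follow the counts of genes called. In H19Ter against WT, all 5 sums were lower without overlap, by 11.2% in complex I, 9.33% in complex II, 9.64% in complex III, 16.5% in complex IV and 12.7% in complex V. In H19Ter+neo against WT, the sum of complex III was 21.9% higher and that of complex II 10.5% lower, both without overlap, while the libraries overlapped for complexes I (3.84% higher), IV (5.64% higher) and V (9.84% lower). Atp5b, which was called lower in this comparison, had the largest part of the complex V sum. In H19Ter+neo against H19Ter, complexes I and III were higher without overlap, by 17.0% and 34.9%.

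Genes that serve the respiratory chain without belonging to the complexes were taken as 5 lists. Of 26 genes for transcription, replication and RNA processing of mitochondrial DNA, 5 (19.2%) rose and 8 (30.8%) fell in H19Ter+neo against WT, where 27.7% and 26.7% of all genes did. In H19Ter against WT, 1 (3.85%) rose and 10 (38.5%) fell, where 14.1% and 11.0% of all genes did. Elac2, which cuts the 3′ ends of mitochondrial tRNAs out of their precursors, had 75.8, 83.0 and 77.4 CPM in H19Ter+neo, 120 and 111 CPM in H19Ter, and 123 and 124 CPM in WT. H19Ter+neo lay below all others, at -0.65 ± 0.07 on the log2 scale against WT (adjusted p = 4.02e-05), and the calls against WT and H19Ter held in all 15 alternative settings. Polg, the mitochondrial DNA polymerase, and Twnk, its helicase, were lower in both mutants: Polg by 0.37 on the log2 scale in H19Ter+neo (adjusted p = 0.00107) and 0.22 in H19Ter (adjusted p = 0.0484), and Twnk by 0.41 in H19Ter+neo (adjusted p = 0.00106) and 0.34 in H19Ter (adjusted p = 0.0138).

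Of 12 transcriptional regulators of respiratory genes, 2 (16.7%) rose and 5 (41.7%) fell in H19Ter+neo against WT, where 27.7% and 26.7% of all genes did. In H19Ter against WT, 2 rose and 2 fell (16.7% each), where 14.1% and 11.0% of all genes did. Esrrb, an orphan nuclear receptor, had 18.3, 13.6 and 15.3 CPM in H19Ter+neo, 30.0 and 26.7 CPM in H19Ter, and 36.8 and 41.2 CPM in WT. The 3 genotypes did not overlap, and it fell by 1.31 on the log2 scale in H19Ter+neo against WT (adjusted p = 2.69e-05) and 0.46 in H19Ter against WT (adjusted p = 0.0319). Pprc1, a coactivator of NRF1, had 200, 213 and 198 CPM in H19Ter+neo, 293 and 296 CPM in H19Ter, and 292 and 284 CPM in WT, and Nrf1 itself had 45.5, 42.4 and 40.9 CPM in H19Ter+neo, 52.1 and 50.5 CPM in H19Ter, and 54.6 and 59.5 CPM in WT. They fell by 0.50 (adjusted p = 6.99e-05) and 0.41 (adjusted p = 0.00117) on the log2 scale in H19Ter+neo against WT.

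Of 38 assembly genes outside the symbols above, 2 (5.26%) rose and 15 (39.5%) fell in H19Ter+neo against WT, where 27.7% and 26.7% of all genes did. In H19Ter against WT, 1 (2.63%) rose and 5 (13.2%) fell, where 14.1% and 11.0% of all genes did. Cox15, needed for the heme of complex IV, fell by 0.61 on the log2 scale in H19Ter+neo against WT (adjusted p = 0.000139), and Foxred1, needed for complex I, by 0.89 (adjusted p = 9.33e-05). Coa5, needed for complex IV, fell by 0.55 in H19Ter+neo (adjusted p = 0.000296) and by 0.44 in H19Ter (adjusted p = 0.00744) against WT. Of 21 electron carriers and other feeders of the chain, 2 (9.52%) rose and 8 (38.1%) fell in H19Ter+neo against WT. In H19Ter against WT, 2 (9.52%) rose and 3 (14.3%) fell. The shares of all genes are those just given. Gpd2, the mitochondrial glycerol phosphate dehydrogenase, had 3.08, 3.44 and 4.32 CPM in H19Ter+neo, 3.25 and 2.89 CPM in H19Ter, and 1.61 and 1.39 CPM in WT, with both mutants above WT (1.24 in H19Ter+neo, adjusted p = 0.000407; 1.02 in H19Ter, adjusted p = 0.00778; both log2). Coq2 and Coq3, enzymes of ubiquinone synthesis, fell in H19Ter+neo against WT by 0.56 (adjusted p = 0.00084) and 0.60 (adjusted p = 0.000595) on the log2 scale, and in H19Ter against WT by 0.55 (adjusted p = 0.00629) and 0.44 (adjusted p = 0.0154).

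Of 18 genes of the tricarboxylic acid cycle and its entry enzyme, 2 (11.1%) rose and 8 (44.4%) fell in H19Ter+neo against WT, where 27.7% and 26.7% of all genes did. In H19Ter against WT, 0 rose and 4 (22.2%) fell, where 14.1% and 11.0% of all genes did. Pdha1, a subunit of pyruvate dehydrogenase, had 52.8, 44.1 and 44.0 CPM in H19Ter+neo, 68.8 and 62.3 CPM in H19Ter, and 76.5 and 88.6 CPM in WT. The genotypes did not overlap, and it fell by 0.81 on the log2 scale in H19Ter+neo against WT (adjusted p = 0.000111). Ogdh and Idh2, of the cycle itself, fell by 0.43 (adjusted p = 0.000177) and 0.69 (adjusted p = 0.000474) in the same comparison. The calls of these named genes in H19Ter against WT each depended on single libraries: without WT replicate 2, Polg, Twnk, Esrrb, Coa5, Gpd2, Coq2, Coq3 and Pdha1 all lost theirs, and each also lost it without at least 1 H19Ter library. In H19Ter+neo against H19Ter, where 12.5% of all genes rose and 15.2% fell, 7 genes (26.9%) rose and 1 (3.85%) fell in the first of the 5 lists. The counts were 2 (16.7%) and 5 (41.7%) among the regulators, and 3 (7.89%) and 6 (15.8%) among the assembly genes. They were 2 and 2 (9.52% each) among the carriers and feeders, and 3 (16.7%) and 4 (22.2%) in the tricarboxylic acid cycle. The 5 lists were not tested as lists.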

How the data were processed

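Total RNA of sorted prospermatogonia was depleted of rRNA and sequenced as directional 50-base read pairs. According to the submitters' processing notes and methods, reads were trimmed with Trim Galore 0.6.0, aligned to mm10 with STAR 2.7.8 and counted per gene. The annotation release and the strand column are not stated in the sources used here. The authors deposited log2 CPM values per gene and library, scaled by library factors and with a mean prior count of 2 reads added. From these log2 values the whole read pairs were recovered (100% of values within 1e-06 of a whole number), and CPM was computed without the prior. The table held 0 columns of other samples. Genes were placed with GENCODE vM21; RefSeq gave the promoter windows, and BLAST 2.17.0 the copies (windows of 50 bases, identity of at least 90%).

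All 20643 genes were fitted on the log2 values with limma 3.58.1 in R 4.3.3, with 1 mean per genotype and Benjamini-Hochberg adjustment over all genes; errors are the SE of the fit. Sums and ratios over members carry no test. The script was tested on simulated data. Alternatives were the 2 genotypes alone, each library left out, other scalings, a prior count of 0.5, voom on the recovered read pairs, and a minimum mean log2 CPM of 1. The lists and members were chosen with earlier results of these data known. Genes were named by a rule: the 5 largest rises and falls called per comparison with a mean log2 CPM of at least 1 and no overlap, the mitochondrial mRNAs and rRNAs, complex II, the isoform sets, the highest and lowest subunit per length in each complex, and up to 3 genes per other list by p. Uqcrfs1, Uqcrc1, Ndufb6, Ndufaf4, Ndufb4c, Cox5a, Cox5b, Atp5a1, Atp5d, mt-Ti, mt-Te, mt-Tm and the chromosome 1 genes were named after their values were seen. The values of 1 complex I gene, which counts among the members, are not reported here.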

Additional observations from a re-analysis of the deposited data

How the results depend on the processing

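No paired analysis was possible because the replicate numbers run from 1 to 7 over the 3 genotypes and no number is shared between them. The nuclear members called in H19Ter against WT were 10, where 25.1% of all genes were called. With the 2 genotypes fitted alone, 40 of 94 were called, all lower, where 30.8% of all genes were called. The count was 5 with the same total per library (23.1% of all genes) and 2 with voom (15%). It was 6 to 26 without single H19Ter+neo libraries (22.2% to 28.4%). Without either WT or either H19Ter library it was lower than 10, with a lower share of all genes. The mitochondrial genes called in that comparison were 0. They were 3 with the 2 genotypes fitted alone and 0 to 3 without single H19Ter+neo libraries, beside the same shares of all genes. The log2 difference of the ratio of mitochondrial to nuclear sums was 0.04, and -0.0786 without H19Ter replicate 4, in a range of -0.0786 to 0.16. In H19Ter+neo against WT, 22 to 42 nuclear and 4 to 13 mitochondrial members were called with single libraries left out, and 7 mitochondrial members with a mean log2 CPM of at least 1, where 14 were tested. In H19Ter+neo against H19Ter these ranges were 10 to 55 and 4 to 11, with 6 mitochondrial members called by voom and 6 with the minimum level. The log2 difference of the ratio lay between 0.23 and 0.29 against WT and between 0.09 and 0.33 against H19Ter. For the ratio, the 2 genotypes alone, voom and another prior count give the same value or do not apply. mt-Co3 reversed in H19Ter+neo against H19Ter, at 3.55 without H19Ter replicate 3 and -7.16 without H19Ter replicate 4. The causes were not tested.

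Over the 60 genes named by the rule, 2500 of 2694 values under an alternative stayed on their side of the threshold, uncalled values that changed sign included, 134 lost the call, 59 gained it and 1 reversed. The genes named after their values were seen were not among these 60. Of the genes named by the rule and called, 0 of 15 in H19Ter against WT, 31 of 39 in H19Ter+neo against WT and 12 of 30 in H19Ter+neo against H19Ter were called under every alternative run. The other scalings moved the median of all genes to at most 0.07 on the log2 scale. Genotypes of 2 and 3 libraries limit each comparison, the H19Ter and WT libraries were less deep than those of H19Ter+neo, and several tRNA genes had few reads.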
